A study of Oryza sativa with 12 samples.

Results

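Cell cycle and DNA replication genes of rice were followed in roots grown with and without arsenate. A gene was taken where its symbol or a synonym, after dropping a leading Os, began with CYCA, CYCB, CYCD, CDK, CDC, RPA, ORC, MCM, POLA, POLD or POLE, whatever its expression. Of 17905 genes with a probe set of their own on the array, 51 met this rule, on 65 probe sets, and the probe set with the highest mean signal stood for each gene. They were 5 ORC, 8 MCM, 7 RPA and 2 POLD genes of DNA replication, 3 A-type, 4 B-type and 9 D-type cyclins, 11 CDK genes and 2 CDC genes. No POLA or POLE gene matched. Another 7 genes of these names (ORC6, CYCA3-1, CYCB1-5, CYCD2-1, CDKB1-1, CDKC-2 and CDKF-2) had no such probe set and were not analysed here. The names rest on annotation alone, and some members carry a second identity in it. ORC5 is also given the synonym OsORC1, which the gene called ORC1 here carries too, so which subunit it encodes is uncertain. CDC25.1 and CDC25.2 are also annotated as the arsenate reductases ACR2.1 and ACR2.2, so that the label of a cell cycle gene is uncertain for both. The cyclin called CYCB1-3 here also has the synonym CYCB1;1.

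The study grew the rice varieties Azucena and Bala for 7 days in hydroponics in 4 groups, which were Azucena with 1 ppm (13.3 uM) arsenate, Azucena with 0 ppm arsenate as control, Bala with 1 ppm arsenate and Bala with 0 ppm arsenate as control. As background, Bala tolerates arsenate better than Azucena does. Each group had 3 arrays from 3 independent experiments, each experiment gave 1 array to every group, and each sample was root tissue pooled from 4 plants of 1 pot. The arrays were Affymetrix rice genome arrays read as 1 signal per probe set, and values are linear MAS5 signals that the authors scaled so that each array has the same trimmed mean of 100.

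A dividing plant cell licenses its DNA in G1, when the origin recognition complex loads the MCM helicase, copies it in S phase with the help of replication protein A and the replicative polymerases, and divides in M phase. D-type cyclins bring cells from G1 into the cycle, A-type cyclins act from S phase onward and B-type cyclins in mitosis, each by activating cyclin-dependent kinases. In a root these genes are transcribed mostly in the meristem near the tip, where cells divide, and little in the longer differentiated zone behind it. In whole roots a lower signal can come from fewer dividing cells or from less RNA per cell, and these cannot be told apart.

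Changes are given as log2 of arsenate over control on log2(signal + 2.1), with the standard error of the fit (SE), and 2.1 makes the changes of weak genes look smaller. A gene was called where the adjusted p of limma's moderated test fell below 0.05, with the experiment as a block and Benjamini-Hochberg adjustment over 28461 probe sets within a comparison. Of the 51 members 50 had a mean signal above 9.4, the limit for testing, and so did 15638 genes in all. MCM8, a relative of the replicative helicase that acts in recombination, did not pass this limit. Its signals were 5.3, 0.9 and 6.8 in Azucena with arsenate, 0.7, 0.9 and 1.1 in Azucena controls, 3.1, 0.5 and 6.4 in Bala with arsenate and 5.6, 3.2 and 6.6 in Bala controls.

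Several arrays stood apart for these genes before any group was compared. The first Azucena arsenate array was the highest of the 12 arrays for 24 of the 50 members (48%), and for 20.5% of all tested genes. The third Bala control array was the highest for 10 members (20%, against 15.1% of all tested genes) and the lowest for 8 (16%, against 18.2%). The summed reading of green shoot genes (mean log2 signal of 7 tested genes of photosynthesis and chloroplasts) was 3.47 to 4.44 in Azucena with arsenate and 4.76 to 6.96 in Azucena controls, with the third control highest. In Bala it was 4.22 to 7.71 with arsenate and 6.27 to 7.68 in controls, with the third arsenate array highest. The ratio of 3' to 5' signal of the GAPDH control probe sets, a reading of RNA integrity, was 8.86 to 23.8 in Azucena with arsenate and 7.58 to 8.60 in Azucena controls, and 3.53 to 3.78 in Bala with arsenate and 1.43 to 2.17 in Bala controls. The same ratio for actin was 5.15 to 8.45 in Azucena with arsenate and 2.24 to 6.87 in Azucena controls, and 6.82 to 8.59 in Bala with arsenate and 2.54 to 3.66 in Bala controls. The varieties thus overlapped by actin and did not by GAPDH. By treatment, all arsenate arrays lay above all controls by GAPDH in both varieties and by actin in Bala, while the Azucena groups overlapped by actin. For cyclophilin all 12 arrays lay between 1.88 and 3.23. The part of these differences in the results was not tested.

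**Figure D1:**
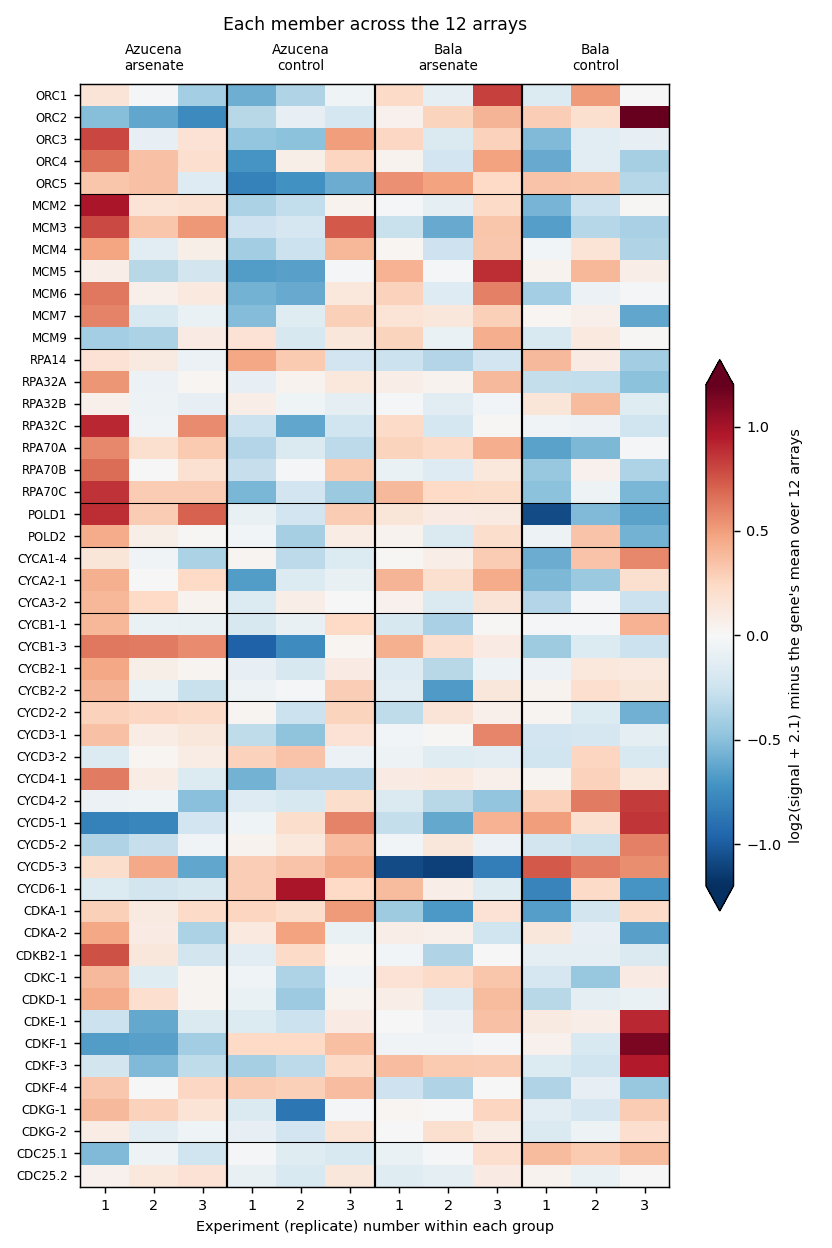
Each of the 50 tested members (rows, grouped as ORC, MCM, RPA, POLD, A-, B- and D-type cyclins, CDK and CDC) on each of the 12 arrays (columns, numbered by experiment within a group), coloured by log2(signal + 2.1) minus the gene's mean over the 12 arrays. The first Azucena arsenate column is red for most replication genes, and 24 of 50 members have their highest value there.

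Arsenate left most of these genes within a narrow range. In Azucena 6 of 50 members (12%) passed the test, 4 higher and 2 lower with arsenate, where 22.7% of all tested genes were called. The higher ones were CYCB1-3, RPA70C, ORC5 and RPA32C (12.4% of all genes were called higher), and the lower ones CYCD5-1 and CDKF-1 (10.3%). In Bala 4 of 50 members (8%) passed, 1 higher and 3 lower, where 12.7% of all tested genes were called. POLD1 was the higher one (6.98% of all genes), and CYCD5-3, CYCD4-2 and CYCD5-1 the lower ones (5.71%). The change was smaller than 1 log2 unit for 49 of 50 members in each variety, against 81.8% of all tested genes in Azucena and 86.2% in Bala. The 95% confidence interval lay wholly within 1 log2 unit of no change for 32 members in Azucena (64%, against 47.8% of all genes) and 38 in Bala (76%, against 55%). The members' shares of calls lay below the shares over all genes in both varieties, and so did the shares with an unadjusted p below 0.05, which were 14 members in Azucena (28%, against 38.8% of all genes) and 9 in Bala (18%, against 29.3%). With no filter on low values 1 member stayed called in each variety, CYCB1-3 in Azucena and CYCD5-3 in Bala. The counts turned on single arrays. Azucena had 1 call without Azucena arsenate 1 or Azucena control 1, 0 without Azucena control 2, 3 without Azucena arsenate 2 and 9 without Azucena arsenate 3. Bala had 1 call without Azucena arsenate 2, Azucena control 1 or 2, or any Bala arsenate array, and 2 without Azucena control 3 or any Bala control.

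**Figure D2:**
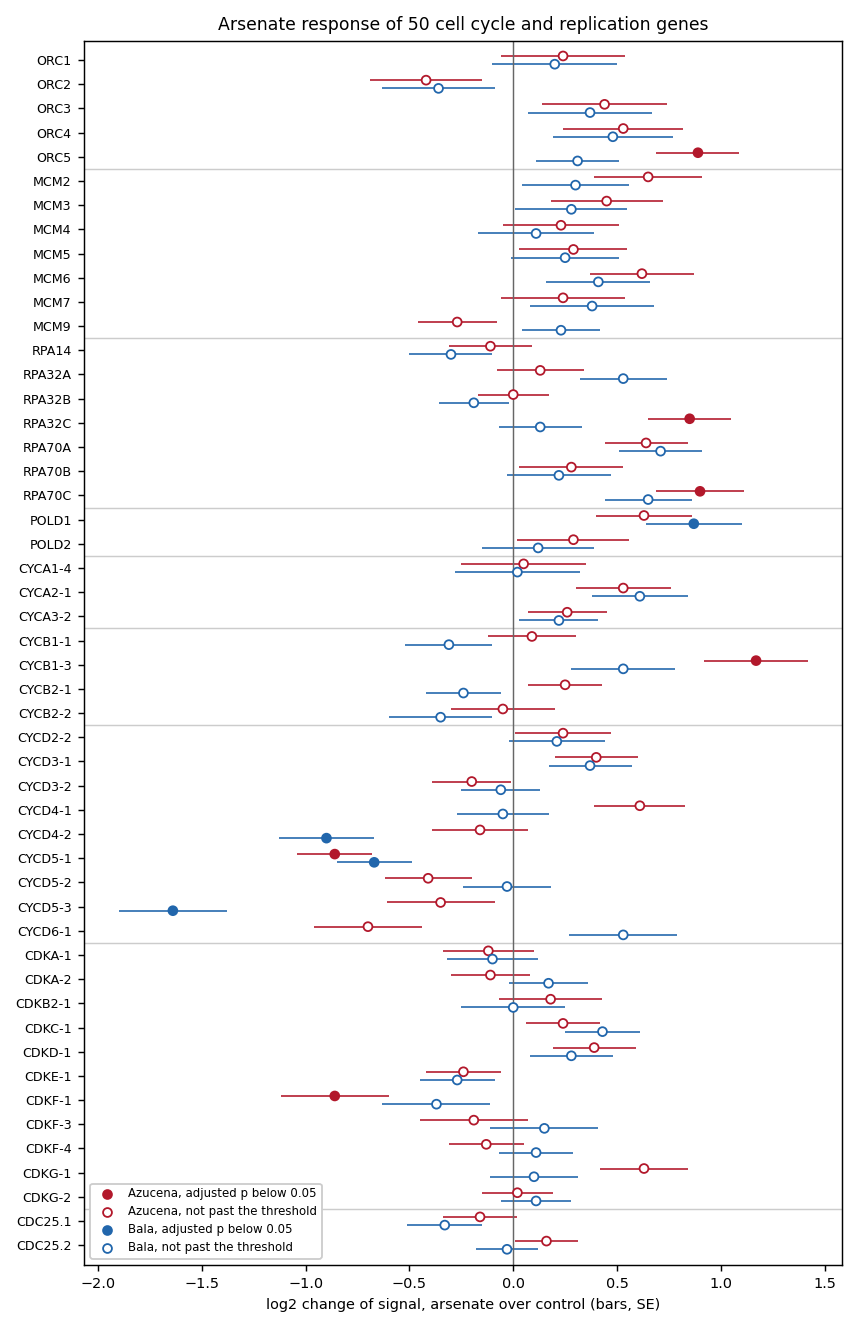
log2 change of signal, arsenate over control, for the 50 tested members in Azucena (red) and Bala (blue), with bars of 1 SE and filled points where the limma adjusted p was below 0.05. Filled points are the 6 Azucena and 4 Bala calls, and the replication genes at the top lie mostly right of 0.

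By role, the replication genes lay mostly above 0 and the cyclins and kinases on both sides of it. Of 21 tested replication genes 17 had a change above 0 in Azucena and 18 in Bala (18 and 15 with each array centred on its own median), against 59.3% and 56.2% of all tested genes, with medians of 0.29 and 0.28. The test called 3 higher in Azucena (12.4% of all genes), 1 higher in Bala (6.98%) and 0 lower in either (10.3% and 5.71%). Among 27 cyclin and CDK genes 14 had a change above 0 in each variety, with a median of 0.02 in both, and the test called 1 higher and 2 lower in Azucena and 0 higher and 3 lower in Bala. Over all tested genes the median was 0.14 in Azucena and 0.08 in Bala. Without the first Azucena arsenate array the Azucena median of the replication genes was 0.11 and that of the 50 members 0.00, and CYCD5-1 was the 1 member still called. When arrays were centred on their medians in place of the deposited scaling, the median over all probe sets moved to 0.19 in Azucena, against 0.10, and to -0.10 in Bala, against 0.06. The Bala median of the members was then -0.02 with 24 of 50 above 0, and the calls were 4 higher and 1 lower in Azucena and 0 higher and 3 lower in Bala. The median of the Bala replication genes was 0.12 under that centring.

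With both varieties averaged, 11 of 50 members (22%) passed, 7 higher and 4 lower, where 34.3% of all tested genes were called. The higher members (19.9% of all genes) were CYCB1-3, RPA70C, POLD1, RPA70A, ORC5, CYCA2-1 and RPA32C. The lower members (14.4%) were CYCD5-3, CYCD5-1, CDKF-1 and CYCD4-2. With arrays centred on their medians 7 passed, 5 higher and 2 lower, without Azucena control 1 also 7, and with no filter on low values 6. Of the 11, CYCB1-3, RPA70C, POLD1, RPA70A, ORC5, CYCD5-3 and CYCD5-1 passed without any 1 array. The averaged call of CDKF-1 (-0.62 ± 0.18) was lost without any 1 Azucena arsenate array, Azucena control 1 or 2, or Bala arsenate 1 or 3 (adjusted p 0.0579 to 0.0811) and with median-centred arrays (0.0532). That of CYCD4-2 (-0.53 ± 0.16) held only without Azucena arsenate 1, Bala arsenate 1 or Bala control 1 (0.0524 to 0.0870 without the others), and was lost with median-centred arrays (0.0502). Each variety on its own called 9 members in all (18%, against 26.5% of all genes), and CYCD5-1 was the 1 member called in both (2%, against 8.96% of all genes). The change had the same sign in both varieties for 40 members, 27 above 0 and 13 below, and opposite signs for 10 (20%, against 23.5% of all genes).

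**Figure D3:**
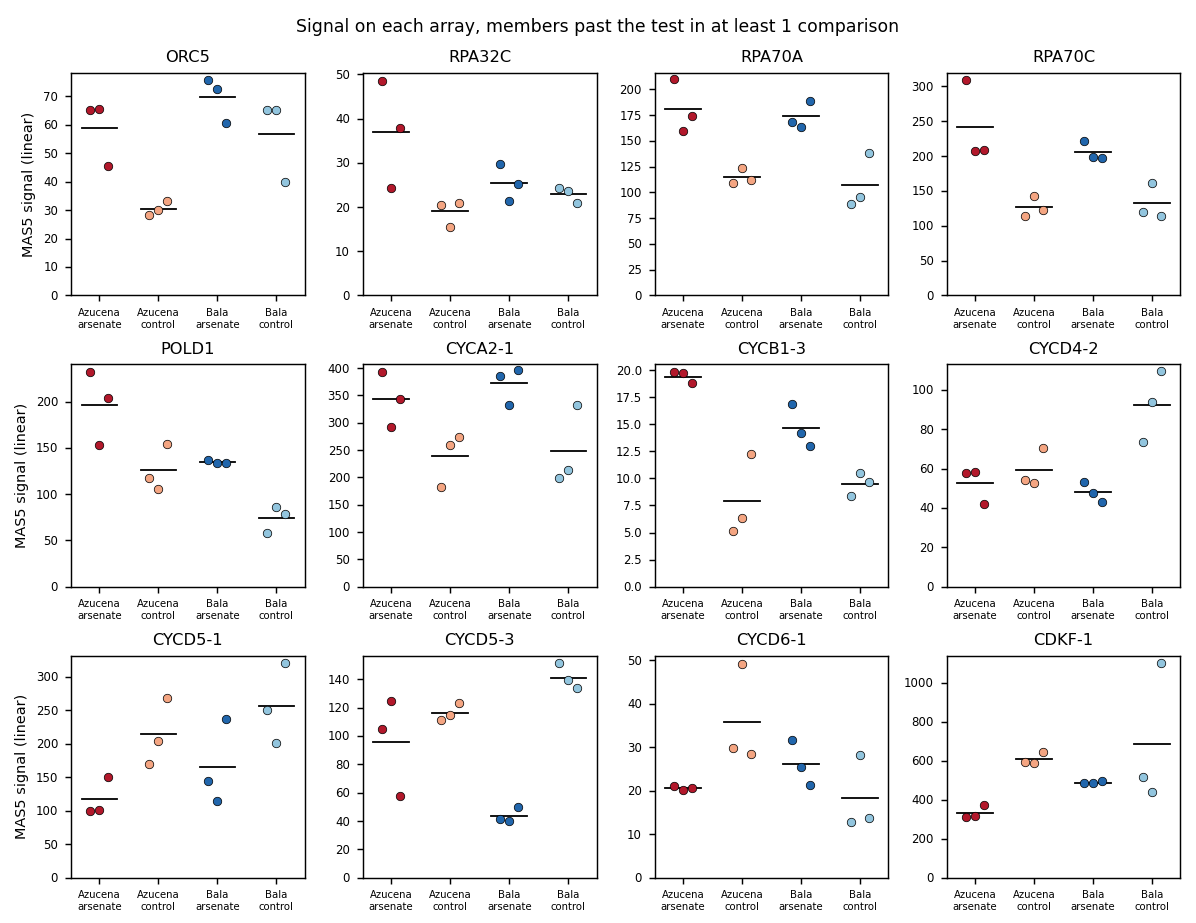
MAS5 signal (linear axis from 0) on each of the 12 arrays for the 12 members past the test in at least 1 comparison, with a line at each group's mean. In CYCB1-3 and ORC5 the 3 Azucena arsenate arrays lie above the 3 Azucena controls, and in CYCD5-3 the 3 Bala arsenate arrays are the lowest of the 12.

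Among the origin recognition genes, whose products mark replication origins and load the helicase, ORC5 was the 1 member called. Its signals were 65.1, 65.6 and 45.6 in Azucena with arsenate, against 28.2, 30.1 and 33.1 in Azucena controls. In Bala they were 75.7, 72.4 and 60.6 with arsenate, against 65.3, 65.0 and 39.8 in controls. The Azucena groups did not overlap, the Bala groups did through the first 2 controls, and the Azucena controls were the lowest arrays of the 12. The change was 0.89 ± 0.20 in Azucena (limma adjusted p = 0.0173), a 1.85-fold rise seen in 3 of 3 experiments, and 0.31 ± 0.20 in Bala (limma adjusted p = 0.351). The Azucena call was lost without Azucena arsenate array 1 (adjusted p 0.0624) or 2 (0.0723), or Azucena control 1 (0.0818) or 2 (0.0821). ORC1, ORC3 and ORC4, further subunits of the complex, had changes of 0.24, 0.44 and 0.53 in Azucena and 0.20, 0.37 and 0.48 in Bala, none past the test. A second and weaker ORC4 probe set had 0.69 ± 0.36 in Azucena and -0.03 ± 0.36 in Bala, neither past the test. ORC2, a further subunit, lay on the other side of 0 in both, with -0.42 ± 0.27 in Azucena and -0.36 ± 0.27 in Bala (adjusted p 0.294 and 0.416). Its signals were 89.7 to 107 in Azucena with arsenate and 122 to 144 in controls, which did not overlap, and the third Bala control read 389.8, above every other array.

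All 6 subunits of the replicative helicase, MCM2 to MCM7, had changes above 0 in both varieties (5 of 6 in Bala with median-centred arrays), and by limma 0 passed the adjusted test in either, while 2 in Azucena and 0 in Bala had an unadjusted p below 0.05. The changes ran from 0.23 (MCM4) to 0.65 (MCM2) in Azucena and from 0.11 (MCM4) to 0.41 (MCM6) in Bala, with SEs of 0.25 to 0.30. MCM2 gave 675, 383 and 388 in Azucena with arsenate, against 263, 277 and 351 in controls, groups that did not overlap. The Bala signals were 339, 315 and 402 with arsenate, against 232, 286 and 344 in controls, which overlapped. The adjusted p of MCM2 was 0.107 in Azucena and 0.489 in Bala, and averaged over both varieties 0.0787. MCM6 came closest with both varieties averaged, at 0.51 ± 0.18 (limma adjusted p = 0.0588). The 6 genes varied together from array to array. The deviations from group means correlated between pairs of them with a median r of 0.812 over the 12 arrays, from 0.474 to 0.958. Over all pairs of the 50 members the median was 0.293. These values only describe arrays that share RNA and scaling. Without the first Azucena arsenate array, which was the highest of its group for all 6, 5 of 6 changes stayed above 0 in Azucena and their median was 0.17, against 0.37 with it. Without the third Bala control 5 of 6 stayed above 0 in Bala, with a median of 0.12 against 0.29, and with median-centred arrays the Bala median was 0.13. MCM9, which is not part of that helicase, had -0.27 ± 0.19 in Azucena and 0.23 ± 0.19 in Bala, neither past the test. A second MCM9 probe set disagreed with it, at 0.19 ± 0.24 in Azucena and -0.90 ± 0.24 in Bala (limma adjusted p = 0.0438).

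The genes of replication protein A, the trimer that coats single-stranded DNA at the fork and in repair, gave 2 of the 4 rises in Azucena. RPA70C, a large subunit, gave 309, 208 and 208 in Azucena with arsenate, against 114, 143 and 123 in Azucena controls. Bala arrays gave 222, 199 and 197 with arsenate, against 119, 161 and 115 in controls, so that neither variety's groups overlapped. The change was 0.90 ± 0.21 in Azucena (limma adjusted p = 0.0202) and 0.65 ± 0.21 in Bala (limma adjusted p = 0.0837), and averaged over both 0.78 ± 0.15 (limma adjusted p = 0.00564). RPA32C, a middle subunit, gave 48.6, 24.2 and 37.9 in Azucena with arsenate, against 20.5, 15.5 and 20.9 in Azucena controls. Its Bala signals of 29.7, 21.3 and 25.2 with arsenate overlapped the 24.2, 23.7 and 20.9 of Bala controls. The change of RPA32C was 0.85 ± 0.20 in Azucena (limma adjusted p = 0.0202) and 0.13 ± 0.20 in Bala (limma adjusted p = 0.724). The Azucena call of RPA70C was lost without Azucena arsenate 1 (adjusted p 0.0757) or Azucena control 1 (0.0917), 2 (0.0564) or 3 (0.0518), and that of RPA32C without Azucena arsenate 1 (0.0820) or Azucena control 1 (0.0854) or 2 (0.0777).

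RPA70A, another large subunit, was called in the average of both varieties. It gave 209.6, 159.8 and 174 in Azucena with arsenate, against 109, 124 and 112 in controls, and 169, 164 and 189 in Bala with arsenate, against 88.5, 95.4 and 138 in controls. All 6 arsenate arrays lay above all 6 controls. The change was 0.64 ± 0.20 in Azucena and 0.71 ± 0.20 in Bala, just short of the threshold (adjusted p 0.0533 and 0.0541), and 0.68 ± 0.14 in the average (limma adjusted p = 0.00803). The averaged calls of RPA70A and RPA70C held in each of the 12 fits that left out 1 array, with adjusted p up to 0.0251 and 0.0199, and that of RPA32C held in 3 of 12, those without Azucena arsenate 2, Azucena control 3 or Bala control 2 (up to 0.0804). The averaged call of RPA32C was also lost without the block (0.0555), with median-centred arrays (0.0502) and with limma's trend and robust options (0.0764). RPA70B had 0.28 and 0.22, and RPA32A 0.13 and 0.53, in Azucena and Bala. RPA32B (0.00 and -0.19) and RPA14, the small subunit (626 to 1154 over the 12 arrays), had no change past the test either, with -0.11 ± 0.20 for RPA14 in Azucena and -0.30 ± 0.20 in Bala.

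POLD1, the catalytic subunit of DNA polymerase delta, was the 1 member called higher in Bala. It gave 137, 133 and 134 in Bala with arsenate, against 57.9, 85.6 and 78.6 in Bala controls. The Azucena signals were 231, 153 and 204 with arsenate, against 117, 106 and 154 in controls. The Bala groups did not overlap and the Bala arsenate arrays agreed closely, while in Azucena the lowest arsenate array lay just below the highest control. The change was 0.87 ± 0.23 in Bala, 1.82-fold (limma adjusted p = 0.0408), and 0.63 ± 0.23 in Azucena (limma adjusted p = 0.0772). The Bala call held in 3 of the 12 fits that left out 1 array, those without Azucena arsenate 1 or 3 or Bala control 2, and was lost in the other 9 (adjusted p 0.0520 to 0.144) and with median-centred arrays (0.0925). Averaged over both varieties POLD1 had 0.75 ± 0.16 (limma adjusted p = 0.00824), which held without any 1 array (up to 0.0280). Its probe set can match more than 1 transcript. POLD2, a second subunit, had 0.29 ± 0.27 in Azucena and 0.12 ± 0.27 in Bala.

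Of 9 other genes of the replication fork (PCNA, 2 FEN1, 5 RFC and FAS2) 7 had changes above 0 in Azucena and 8 in Bala (8 and 6 with median-centred arrays). The test called 1 higher in Azucena (12.4% of all genes) and 0 in Bala (6.98%), with 0 lower (10.3% and 5.71%). FAS2, a subunit of the chromatin assembly factor that follows the fork, had 0.80 ± 0.24 in Azucena (limma adjusted p = 0.0444) and 0.51 ± 0.24 in Bala (limma adjusted p = 0.207). Its Azucena call held in 3 of the 12 fits without 1 array (those without Bala arsenate 1 or 3 or Bala control 3), and was lost in 9 (adjusted p 0.0518 to 0.165) and with quantile normalization (0.0706). RFC4 and RFC3, of the complex that loads the sliding clamp, had 0.64 and 0.40 in Azucena and 0.04 and 0.44 in Bala. PCNA, the sliding clamp itself, gave 1028, 818 and 780.4 in Azucena with arsenate, against 628, 699 and 646 in controls, and 755, 603 and 823 in Bala with arsenate, against 533, 555 and 409 in controls. Neither variety's PCNA groups overlapped, and the change passed the test in the average of both (0.47 ± 0.14, limma adjusted p = 0.0338) but in neither alone (0.184 in Azucena and 0.118 in Bala). The averaged call of PCNA held without Azucena arsenate 3, Bala arsenate 2 or Bala control 2, and was lost without any other 1 array and with median-centred arrays. PCNA is named outside the rule for this list, after its values were seen. In that average 3 of the 9 were called higher, FAS2, PCNA and RFC3 (19.9% of all genes), and 0 lower (14.4%). The averaged call of FAS2 was lost without Azucena control 1. That of RFC3 was lost without Azucena arsenate 1 or Azucena control 1 or 2, and with median-centred arrays. Both were lost with no filter on low values and without any 1 experiment.

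All 3 A-type cyclins had changes above 0 in both varieties (2 of 3 in each with quantile normalization, and in Bala with median-centred arrays), and CYCA2-1 was called in the average. It gave 393, 292 and 344 in Azucena with arsenate, against 182, 259 and 274 in controls, and 386, 333 and 396 in Bala with arsenate, against 199.8, 213 and 333 in controls. The groups did not overlap in Azucena, and in Bala the lowest arsenate array lay just above the highest control. The change was 0.53 ± 0.23 in Azucena and 0.61 ± 0.23 in Bala (adjusted p 0.126 and 0.117), and 0.57 ± 0.16 in the average (limma adjusted p = 0.0256). That call was lost without Azucena arsenate 1 (0.0601), Azucena control 1 (0.0708) or 3 (0.0525), Bala arsenate 1 (0.0732), or Bala control 1 (0.0641) or 2 (0.0575), and with median-centred arrays (0.0719). CYCA3-2 had 0.26 and 0.22, and CYCA1-4 0.05 and 0.02, in Azucena and Bala.

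CYCB1-3, a mitotic cyclin with a mean signal of 12.9, close to the limit for testing, was called in Azucena. It gave 19.8, 19.7 and 18.8 in Azucena with arsenate, against 5.1, 6.3 and 12.3 in controls. The Bala signals were 16.9, 14.2 and 13.0 with arsenate, against 8.4, 10.5 and 9.7 in controls. Neither variety's groups overlapped, and 3 of the 6 control arrays read below 9.4, so that the size of its change depends on the pseudocount. The gene passed the limit for testing through its arsenate arrays, which all read above 9.4. Its Azucena call held with no filter on low values. The change was 1.17 ± 0.25 in Azucena, 2.25-fold (limma adjusted p = 0.0132), 0.53 ± 0.25 in Bala (limma adjusted p = 0.209) and 0.85 ± 0.18 in the average (limma adjusted p = 0.00758). With a pseudocount at the median of all signals the Azucena change was 0.76 and still passed the test. The Azucena call was lost without Azucena arsenate 1 (adjusted p 0.0533) or 2 (0.0557) or Azucena control 1 (0.0624) or 2 (0.0657), and the averaged call held without any 1 of the 12 arrays (up to 0.0257).

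The other 3 B-type cyclins were not called. CYCB1-1 shares its name with an Arabidopsis gene whose promoter is widely used as a marker of dividing cells. CYCB1-3 has that name as a synonym too, so which of them matches the Arabidopsis gene is uncertain. CYCB1-1 gave 599, 429.8 and 428 in Azucena with arsenate, against 398, 427 and 535 in controls. Bala arrays gave 398, 348 and 459 with arsenate, against 451, 446 and 607 in controls. The groups overlapped in both varieties, with changes of 0.09 ± 0.21 in Azucena (95% interval -0.37 to 0.56) and -0.31 ± 0.21 in Bala (-0.78 to 0.15). CYCB2-1 had 0.25 ± 0.18 and -0.24 ± 0.18, and CYCB2-2 -0.05 ± 0.25 and -0.35 ± 0.25, in Azucena and Bala, none past the test. CDKB2-1, a plant kinase of the G2 to M step, had 0.18 ± 0.25 and 0.00 ± 0.25. These 4 mitotic genes, a set that leaves out CYCB1-3, also varied together between arrays. The median r between their deviations from group means over the 12 arrays was 0.778, against 0.293 over all pairs of members. All 4 had their highest Azucena value on the first arsenate array.

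The D-type cyclins, which act in G1, gave 1 of 2 falls in Azucena and all 3 in Bala. Of 9 tested, 0 were called higher. Over all genes 10.3% were called lower in Azucena and 5.71% in Bala, and 12.4% and 6.98% higher. CYCD5-1 gave 99.3, 102 and 149.8 in Azucena with arsenate, against 170.4, 205 and 268 in controls, and the groups did not overlap. In Bala it gave 145, 114 and 237 with arsenate, against 251, 201 and 321 in controls, where the third arsenate array lay within the controls. The gene was lower with arsenate in 3 of 3 experiments of each variety. The change was -0.86 ± 0.18 in Azucena (limma adjusted p = 0.013), -0.67 ± 0.18 in Bala (limma adjusted p = 0.047) and -0.77 ± 0.13 in the average (limma adjusted p = 0.00291). The Azucena call was lost without Azucena control 2 (0.0697). The Bala call was lost without any 1 of the 12 arrays (0.0545 to 0.162), and without the experiment as a block both were lost (adjusted p 0.0705 in Azucena and 0.189 in Bala). The averaged call held without any 1 array (up to 0.0111).

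CYCD5-3 had the largest change of any tested member in either variety. It gave 41.6, 40.3 and 49.7 in Bala with arsenate, against 151, 139 and 133 in Bala controls. The Azucena signals were 105, 124 and 57.8 with arsenate, against 111, 115 and 123 in controls. In Bala all arsenate arrays lay well below all controls, and in Azucena the groups overlapped, with the third arsenate array lowest. The change was -1.64 ± 0.26 in Bala, which is 0.32 of the control level (limma adjusted p = 0.00558), and -0.35 ± 0.26 in Azucena (limma adjusted p = 0.372). The Bala call held without any 1 of the 12 arrays (adjusted p 0.0013 to 0.0333). The difference between the varieties, Bala minus Azucena, was -1.30 ± 0.37 and did not pass (limma adjusted p = 0.244). CYCD4-2 gave 53.3, 47.6 and 43.0 in Bala with arsenate, against 73.7, 94.0 and 109.5 in Bala controls, without overlap. Its Azucena signals of 57.6, 58.4 and 42.1 with arsenate overlapped the 54.1, 52.8 and 70.2 of controls. The change of CYCD4-2 was -0.90 ± 0.23 in Bala (limma adjusted p = 0.0366) and -0.16 ± 0.23 in Azucena (limma adjusted p = 0.647). Its Bala call held without Azucena arsenate 1 or 3, Azucena control 3 or Bala control 1, and was lost without any other array (0.0549 to 0.113).

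The other D-type cyclins varied in direction. CYCD6-1, whose Arabidopsis namesake drives a formative division of the root ground tissue, gave 21.0, 20.2 and 20.6 in Azucena with arsenate, against 29.8, 49.2 and 28.5 in controls, without overlap. In Bala it gave 31.7, 25.4 and 21.4 with arsenate, against 12.9, 28.3 and 13.8 in controls, which overlapped. The changes were -0.70 ± 0.26 in Azucena and 0.53 ± 0.26 in Bala, and neither passed (adjusted p 0.09 and 0.227). CYCD4-1 had 0.61 ± 0.22 in Azucena, with arsenate arrays (307 to 531) above controls (231 to 269.7), and -0.05 ± 0.22 in Bala. CYCD5-2 had -0.41 ± 0.21 in Azucena and -0.03 ± 0.21 in Bala. A second and weaker CYCD5-2 probe set had -0.11 ± 0.21 and -0.62 ± 0.21, neither past the test. CYCD3-1 had 0.40 and 0.37, CYCD2-2 0.24 and 0.21, and CYCD3-2 -0.20 and -0.06, in Azucena and Bala. Unlike the MCM genes, the D-type cyclins did not vary together between arrays (median r of -0.104 between deviations from group means, from -0.542 to 0.789).

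Among the kinases CDKF-1 was the 1 member called. Its Arabidopsis namesake activates other kinases that activate CDKs. It gave 314, 318 and 373 in Azucena with arsenate, against 593, 591 and 644 in controls. Bala arrays gave 487, 485 and 494 with arsenate, against 519.6, 441 and 1100.4 in controls. The Azucena arrays agreed within each group and did not overlap, while the third Bala control was higher than any other array. The change was -0.86 ± 0.26 in Azucena, 0.55 of the control level (limma adjusted p = 0.0442), and -0.37 ± 0.26 in Bala (limma adjusted p = 0.384). The Azucena call held without Bala arsenate 3 or Bala control 2 or 3, and was lost in the other 9 fits without 1 array (0.0522 to 0.152). It was also lost without the block (0.0577) and with median-centred arrays (0.109).

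The other 10 kinase genes did not pass in either variety. CDKA-1, the main plant CDK, read 375 to 859 over the 12 arrays, with -0.12 ± 0.22 in Azucena and -0.10 ± 0.22 in Bala. CDKF-4 had -0.13 ± 0.18 and 0.11 ± 0.18. A second and weaker CDKF-4 probe set disagreed and was called lower in both varieties, at -0.75 ± 0.18 in Azucena (limma adjusted p = 0.0232) and -0.95 ± 0.18 in Bala (limma adjusted p = 0.0132). CDKG-1 had 0.63 ± 0.21 in Azucena (limma adjusted p = 0.0652), where its groups did not overlap, and 0.10 ± 0.21 in Bala. CDKD-1, a CDK-activating kinase, had 0.39 and 0.28. The transcription-linked kinases CDKC-1 and CDKE-1 had 0.24 and -0.24 in Azucena and 0.43 and -0.27 in Bala. CDKA-2, CDKF-3 and CDKG-2 had changes between -0.19 and 0.17 in both varieties. Except for CDKF-4, weaker probe sets of these kinases did not pass in either variety, but some read otherwise. Those of CDKA-2 had 0.40 and 0.64 in Azucena and 0.73 and 0.10 in Bala. Those of CDKG-2 had 0.37 and 0.45 in Azucena and 0.51 and 0.42 in Bala. That of CDKE-1 had -0.32 ± 0.81 in Azucena and 1.62 ± 0.81 in Bala. Those of CDKA-1 and CDKG-1, close to the limit for testing, had 0.62 and -0.27 in Azucena and 0.54 and -0.38 in Bala.

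CDC25.1 and CDC25.2, annotated both as CDC25-type phosphatases and as arsenate reductases, were not called. CDC25.1 gave 1042, 1436 and 1274 in Azucena with arsenate, against 1481, 1362 and 1324 in controls, and 1421, 1475 and 1724 in Bala with arsenate, against 1958, 1870.4 and 1956 in controls. The Azucena groups overlapped and the Bala arsenate arrays all lay below the Bala controls, with changes of -0.16 ± 0.18 in Azucena and -0.33 ± 0.18 in Bala (adjusted p 0.543 and 0.262). CDC25.2 read 697 to 892 over the 12 arrays and had 0.16 ± 0.15 and -0.03 ± 0.15. The 95% interval of CDC25.1 was -0.56 to 0.24 in Azucena and -0.73 to 0.07 in Bala, and that of CDC25.2 -0.18 to 0.51 and -0.38 to 0.31.

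Counted by arrays that do not overlap, 9 members lay wholly higher with arsenate in Azucena (18%, where 28.5% of all genes did) and 5 wholly lower (10%, against 18.8%). In Bala 9 lay wholly higher (18%, against 18.6% of all genes) and 3 wholly lower (6%, against 13.8%). CYCA2-1, CYCB1-3, RPA70A and RPA70C were wholly higher in both varieties. Wholly higher in Azucena alone were CDKG-1, CYCD4-1, MCM2, ORC5 and RPA32C, and in Bala alone CDKC-1, CYCD3-1, MCM7, POLD1 and RPA32A. Wholly lower were CDKF-1, CYCD5-1, CYCD5-2, CYCD6-1 and ORC2 in Azucena, and CDC25.1, CYCD4-2 and CYCD5-3 in Bala. Between the controls of the varieties 7 members lay wholly higher in Bala (14%, against 13.6% of all genes) and 5 wholly lower (10%, against 15%), and with arsenate 5 lay wholly higher in Bala (10%, against 14.4%) and 7 wholly lower (14%, against 16.4%).

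**Figure D4:**
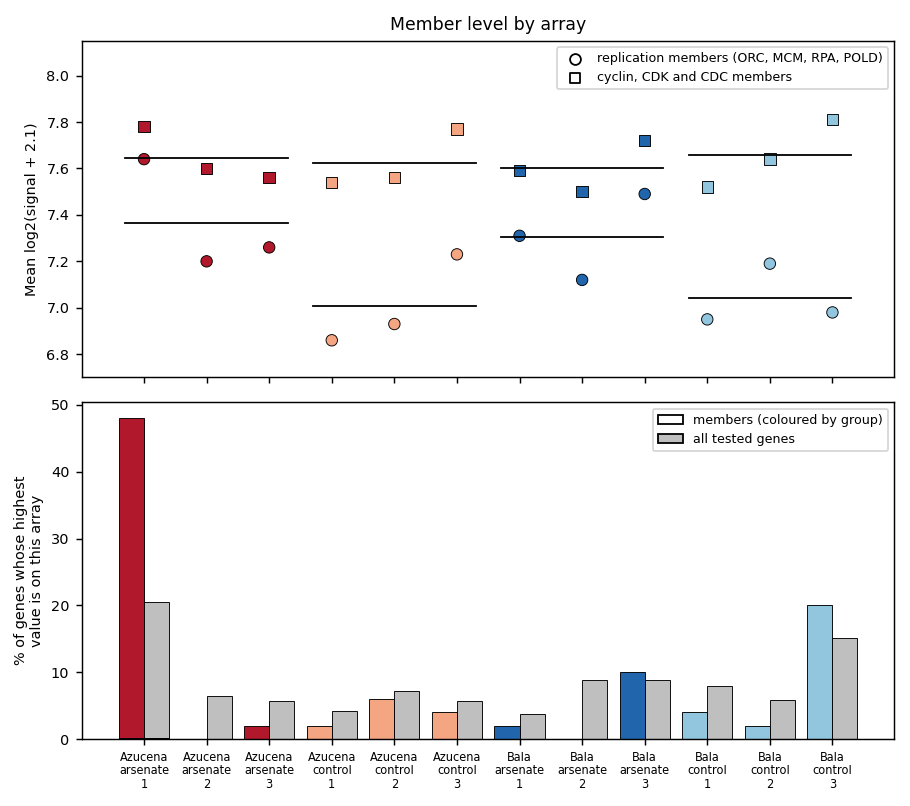
Upper panel, mean log2(signal + 2.1) of the 21 tested replication genes (circles) and the 29 cyclin, CDK and CDC genes (squares) on each array, with lines at group means. Lower panel, percent of the 50 members (coloured) and of all 15638 tested genes (grey) with their highest value on each array. The first Azucena arsenate array holds the highest value of 48% of the members and 20.5% of all genes.

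By array, the mean log2 signal of the 21 replication genes was 7.64, 7.20 and 7.26 in Azucena with arsenate, against 6.86, 6.93 and 7.23 in Azucena controls. In Bala it was 7.31, 7.12 and 7.49 with arsenate, against 6.95, 7.19 and 6.98 in controls. The second Azucena arsenate array lay below the third control, and the second Bala arsenate array below the second control, so that both varieties' groups overlapped. Within experiments the arsenate array was higher in 3 of 3 pairs in Azucena and in 2 of 3 in Bala. For the 29 cyclin, CDK and CDC genes the group means were 7.65 ± 0.12 in Azucena with arsenate and 7.62 ± 0.12 in controls, and 7.60 ± 0.11 in Bala with arsenate and 7.65 ± 0.15 in controls (SD, n = 3 each). The array-to-array spread within groups was larger than these differences. The genes outside the set whose signals followed the members' mean most closely over the 12 arrays were the kinesin KIN10B (r = 0.964), TOP6B (0.931), a subunit of topoisomerase VI, the unnamed loci LOC4341869 (0.920) and LOC4346476 (0.918), and the kinesin KIN13B (0.913). Within the members MCM6 (0.944), ORC3 (0.933) and MCM2 (0.880) followed it best, in part because they are in that mean, and CYCD3-2 (-0.425), RPA14 (-0.413) and CDC25.1 (-0.368) ran against it.

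No member passed the test of a difference between the varieties in their response to arsenate. By limma 0 of 50 were called, where 0.0703% of all genes were (0.0192% higher and 0.0512% lower in Bala), and 4 members (8%, against 9.65% of all genes) had an unadjusted p below 0.05. These were CYCD5-3, CYCD6-1 (1.23 ± 0.37, Bala minus Azucena), CYCD4-2 (-0.74 ± 0.32) and RPA32C (-0.72 ± 0.29), with adjusted p from 0.244 to 0.472. The SE of this difference was 0.22 to 0.43 over the members, and the 95% interval lay within 1 log2 unit of no difference for 26 of 50 (52%, against 41.6% of all genes).

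Without arsenate 2 of 50 members (4%) differed between Bala and Azucena, 1 higher and 1 lower in Bala, where 12.2% of all tested genes were called (5.13% higher and 7.04% lower). ORC5 was higher in Bala controls (65.3, 65.0 and 39.8) than in Azucena controls (28.2, 30.1 and 33.1), with a log2 difference of 0.82 ± 0.20 (limma adjusted p = 0.0273). CYCD6-1 was lower in Bala controls (12.9, 28.3 and 13.8) than in Azucena controls (29.8, 49.2 and 28.5), with a log2 difference of -0.93 ± 0.26 (limma adjusted p = 0.0482). Neither gene's control groups overlapped. MCM9 was not called by the probe set that stands for it (-0.06 ± 0.19). Its second and weaker probe set was called higher in Bala controls (0.88 ± 0.24, limma adjusted p = 0.0405). The ORC5 call was lost without Azucena control 1 (0.119) or 2 (0.130) or Bala control 1 (0.0942) or 2 (0.110). That of CYCD6-1 was lost in 9 of the 12 fits without 1 array (0.0524 to 0.201), holding without Bala arsenate 1 or 2 or Bala control 2, and was lost without the block (0.0660), with quantile normalization (0.0626) and with median-centred arrays (0.0902). With arsenate 1 of 50 members (2%) differed, where 11.5% of all genes were called (4.82% higher and 6.65% lower). CYCD5-3 was lower in Bala (41.6, 40.3 and 49.7) than in Azucena (105, 124 and 57.8), with a log2 difference of -1.02 ± 0.26 (limma adjusted p = 0.0324), without overlap. This call was lost without Azucena arsenate 1 (0.120) or 2 (0.144), Azucena control 1 (0.0510) or 2 (0.0521), or Bala arsenate 1 or 2 (0.134 each). A probe set can read differently in 2 varieties where its target sequence differs, and this was not tested.

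Genes that regulate or accompany the cycle were read next, as lists. Beside the counts of each list stand the shares over all tested genes. These were 12.4% called higher and 10.3% lower in Azucena, and 6.98% and 5.71% in Bala. Of 9 CDK inhibitors and regulators 1 was called higher in Azucena, 0 in Bala and 0 lower. EL2, a rice CDK inhibitor of the SIAMESE-related family first known from elicitor-treated cells, gave 1135, 1367 and 788 in Azucena with arsenate, against 521, 428 and 307 in controls. The Bala signals were 1016, 1352 and 1044 with arsenate, against 858, 1115 and 752 in controls. The Azucena controls were the lowest arrays, and the Bala groups overlapped. The change was 1.38 ± 0.20 in Azucena (limma adjusted p = 0.00263), which held without any 1 array (up to 0.0183), and 0.33 ± 0.20 in Bala (limma adjusted p = 0.318). KRP6, an inhibitor of the Kip-related type, had -1.10 ± 0.37 in Azucena and -0.86 ± 0.37 in Bala, and KRP5 -0.20 ± 0.19 and -0.42 ± 0.19, none past the test in either variety alone. KRP6 was called lower in the average of both (-0.98 ± 0.26, limma adjusted p = 0.0224), a call lost without Azucena arsenate 2, Azucena control 3 or Bala arsenate 1.

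Of 8 tested cyclins of other types 1 was called lower in each variety and 0 higher. CYCP3-1, a P-type cyclin, gave 226, 207 and 212 in Azucena with arsenate, against 514, 399.5 and 671 in controls. Bala arrays gave 219.7, 221 and 305 with arsenate, against 465, 442 and 1104 in controls. In both varieties all arsenate arrays lay below all controls, with changes of -1.26 ± 0.26 in Azucena (limma adjusted p = 0.0114) and -1.31 ± 0.26 in Bala (limma adjusted p = 0.0144). The calls were lost without Azucena control 1 (0.0531) and without Bala arsenate 1 (0.0649), each in its own variety. CYCP2-1 (-0.88 ± 0.30 in Azucena) and CYCH1-1 (0.56 ± 0.20), the cyclin partner of the CDK-activating kinase, did not pass there. CYCP2-1 was called lower in the average of both varieties (-0.64 ± 0.21, limma adjusted p = 0.0464), which held without Azucena arsenate 3 or Bala control 3 and was lost without any other 1 array and without the block. Of 6 histone genes, among them the centromeric CenH3, 0 were called in either variety by limma. At an unadjusted p below 0.05, 0 passed in Azucena and 1 in Bala. H2B.10 was tested through its Azucena signals alone, since its Bala arrays read 0.4 to 2.0, and it says nothing of a change in Bala. The changes of the others lay between -0.47 (H2B.7) and 0.25 (H2B.11), both of them in Bala. H2B.7 was called lower in the average of both varieties (-0.37 ± 0.12, limma adjusted p = 0.0408), which held without Bala arsenate 1 or Bala control 1 and was lost without any other 1 array, with quantile normalization and with median-centred arrays.

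**Figure D5:**
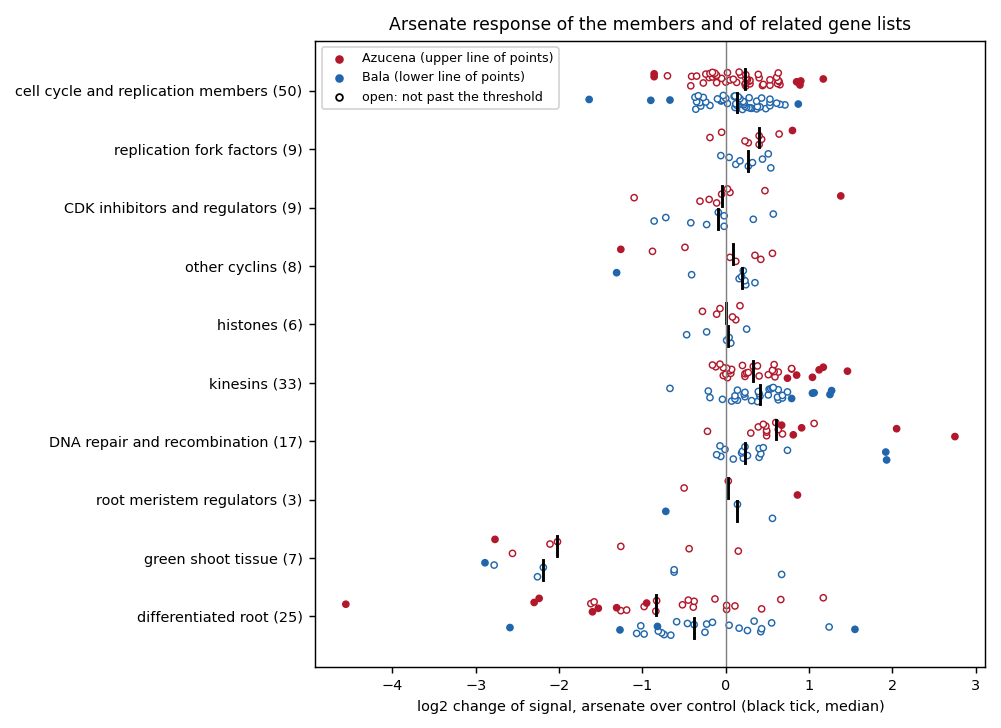
log2 change of signal, arsenate over control, in Azucena (red, upper row of each line) and Bala (blue, lower row) for the 50 members and for related gene lists, with the number tested in brackets, filled points where the limma adjusted p was below 0.05 and a black tick at the median. Kinesin and DNA repair genes have calls above 0 only, and the green shoot list lies mostly below 0.

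Kinesin and DNA repair genes were called higher in both varieties, and none lower. Of 33 kinesin genes, which encode microtubule motors of the spindle, the division plate and the interphase cell, 7 were called higher in Azucena and 5 in Bala, and 0 lower in either (12.4% of all genes were called higher in Azucena and 6.98% in Bala). KIN12E gave 164, 149.5 and 142 in Azucena with arsenate, against 40.7, 40.3 and 93.2 in controls, and 109, 99.5 and 119 in Bala with arsenate, against at most 76.8 in controls. Its groups did not overlap in either variety, with changes of 1.46 ± 0.29 in Azucena (limma adjusted p = 0.0103) and 1.25 ± 0.29 in Bala (limma adjusted p = 0.0283). KIN14B was called in Bala (1.06 ± 0.20) and had 0.07 ± 0.20 in Azucena, and KIN5A, of the kinesin-5 family of spindle motors, was called in Azucena (1.04 ± 0.24) and had 0.31 ± 0.24 in Bala. The Azucena call of KIN12E was lost without Azucena arsenate 2 (0.0516) or Azucena control 1 (0.0513) or 2 (0.0520), and its Bala call without Bala arsenate 1 (0.116) or 2 (0.0983) or Bala control 1 (0.103) or 2 (0.0949), without the block (0.0505) and with median-centred arrays (0.0678). KIN14B was lost without Bala arsenate 1 (0.0649) or 2 (0.0509) and without the block (0.0901), and KIN5A without Azucena arsenate 1 (0.0572) or Azucena control 1 (0.0809) or 2 (0.0767). The count of kinesins moved with them. In Azucena it was 0 without Azucena control 1 or 2, 1 without Azucena arsenate 1 or 2 and 3 without Azucena control 3. In Bala it was 0 without Bala arsenate 1 or 2, 1 without Bala control 1, 2 without Bala arsenate 3, and 3 without Azucena arsenate 2, any 1 Azucena control or Bala control 3. With no filter on low values it was 1 in Azucena and 0 in Bala. With median-centred arrays the counts were 7 in Azucena and 2 in Bala. In the average of both varieties 13 of 33 kinesins were called higher (19.9% of all genes) and 0 lower (14.4%). These 13 calls held in 6 (KIN14C and KIN7L) to 24 (KIN14I) of 24 other settings. Those of KIN12E, KIN5A and KIN14B held in 22, 19 and 18.

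Of 17 genes of DNA repair and recombination 5 were called higher in Azucena (12.4% of all genes) and 2 in Bala (6.98%), and 0 lower (10.3% and 5.71%). MSH5, a MutS homologue of meiotic crossing over, gave 106, 69.1 and 75.2 in Azucena with arsenate, against 22.1, 14.9 and 18.2 in controls, and 44.5, 43.7 and 68.4 in Bala with arsenate, against at most 14.7 in controls. DMC1, the recombinase of meiosis, gave 98.5, 103 and 106 in Azucena with arsenate, against 20.1, 15.2 and 7.5 in controls, and 117, 123 and 193 in Bala with arsenate, against 45.9, 30.2 and 31.8 in controls. For both genes every arsenate array lay above every control of its variety. MSH5 changed by 2.05 ± 0.22 in Azucena (limma adjusted p = 0.000712) and 1.92 ± 0.22 in Bala (limma adjusted p = 0.00138), and DMC1 by 2.75 ± 0.33 (limma adjusted p = 0.00114) and 1.93 ± 0.33 (limma adjusted p = 0.00737). All 4 calls held without any 1 array, with adjusted p up to 0.0343. PARP1, a sensor of broken DNA, had 0.81 ± 0.21 in Azucena (limma adjusted p = 0.0279) and 0.21 ± 0.21 in Bala. Its Azucena call was lost without Azucena arsenate 1 (0.107) or 2 (0.0849) or Azucena control 1 (0.0576), 2 (0.104) or 3 (0.0955). In the average of both varieties 6 of the 17 were called higher (19.9% of all genes) and 0 lower (14.4%). The averaged calls of DMC1 and MSH5 held in every other setting that gave them a value, and that of PARP1 in 10 of 24. Without Azucena arsenate 1 or 2 or any 1 Azucena control, and with no filter on low values, 2 repair genes were called in Azucena, and without Bala arsenate 2 or Bala control 2 there were 3.

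Genes taken as markers of root zones were read beside these genes, since the share of dividing cells in a whole root was not measured. Of 3 root meristem regulators QHB, a homeobox gene of the quiescent centre, was called higher in Azucena (0.86 ± 0.25, limma adjusted p = 0.0417) and had 0.56 ± 0.25 in Bala, and SHR1, a SHORT-ROOT gene, was called lower in Bala (-0.72 ± 0.16, limma adjusted p = 0.0244) and had -0.50 ± 0.16 in Azucena. The Azucena call of QHB was lost without Azucena arsenate 1 or 2, any 1 Azucena control, Bala arsenate 1 or Bala control 2 (0.0588 to 0.152), with quantile normalization (0.0548), with median-centred arrays (0.0506), with limma's trend and robust options (0.0515) and with no filter on low values (0.124). The Bala call of SHR1 was lost without Bala arsenate 1 or 2 or Bala control 2 or 3 (0.0640 to 0.101) and with no filter on low values (0.12). In the average of both varieties QHB was called higher and SHR1 lower (19.9% and 14.4% of all genes). Both averaged calls held without any 1 array. That of QHB held in 19 of 23 other settings and that of SHR1 in 22 of 24. The losses included the fits without the first or the second experiment for both genes, and no filter on low values for QHB. SCR1, a SCARECROW gene of the ground tissue, had 0.03 ± 0.34 and 0.14 ± 0.34. The mean log2 signal of the 3 was 5.13 to 5.85 in Azucena with arsenate, against 5.14 to 5.66 in controls, and 5.19 to 5.67 in Bala with arsenate, against 5.47 to 5.53 in controls, which overlapped in both. A list taken as differentiated root was chosen by gene symbol (Casparian strip membrane proteins and their relatives, and secondary wall cellulose synthases). Many of its 25 genes are such relatives, and whether they mark this zone was not tested. In Azucena 7 were called lower and 0 higher (10.3% and 12.4% of all genes). In Bala 3 were called lower and 1 higher (5.71% and 6.98%). In the average of both varieties 10 were called lower and 1 higher (14.4% and 19.9%). The Azucena count of calls was 3 without Azucena control 2, 4 without Azucena arsenate 2, 11 without Azucena arsenate 3 and 13 without Bala control 3. The Bala count was 1 without Azucena control 2 or 3 or Bala arsenate 1 or 3, 2 without Azucena arsenate 2, Azucena control 1, Bala arsenate 2 or Bala control 1, and 6 without Bala control 3. With no filter on low values the counts were 4 in Azucena and 1 in Bala. Their mean log2 signal was 6.84 to 7.46 in Azucena with arsenate, against 7.91 to 8.11 in controls, and 7.06 to 7.17 in Bala with arsenate, against 7.26 to 7.69 in controls. The list's arsenate and control arrays did not overlap in either variety, and its part in the members' changes was not tested. OsCASPL1C1 had -4.56 ± 0.69 in Azucena and -2.59 ± 0.69 in Bala, OsCASPL1D1 -2.24 ± 0.37 in Azucena, and OsCASPL1E1, the 1 called higher, 1.55 ± 0.25 in Bala. Of these calls, that of OsCASPL1C1 in Bala was lost without any 1 array but Bala control 2 (0.0523 to 0.114). Of 7 tested green shoot genes 1 was called lower in each variety, the chloroplast development factor GLK1. It read 0.3 to 1.6 in Azucena with arsenate, against 9.3 to 35.4 in controls, and 1.0 and 1.2 on the first and second Bala arsenate arrays, with the third higher, against 27.4 to 105.8 in controls. No fold is given for it, since 5 of its 6 arsenate arrays read below the pseudocount. It passed the limit for testing through its other arrays. Its Bala call was lost without Bala arsenate 1 (0.0683) or 2 (0.0620) or Bala control 1 (0.0575). In the average of both varieties 3 of the 7 were called lower (14.4% of all genes) and 0 higher (19.9%), GLK1, PSAH and CAB2R. The averaged calls of PSAH and CAB2R held in 22 and 10 of 24 other settings. RBCS1 lay below the limit for testing, at 0.5 to 7.6 over the 12 arrays.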

How the data were processed

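Root RNA of 2 rice varieties, with and without arsenate, was hybridised to Affymetrix rice genome arrays, 12 in all. The deposited intensities are linear MAS5 signals, 1 per probe set, that the authors scaled to a common trimmed mean, per the submitters' processing notes, which name MAS5 with no version, and as the values show (a 2% trimmed mean of 100 on each array). Background correction and probe summary were done before deposit. Total signal therefore carries no depth, and 3 arrays per group limit the precision.

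From these, 123 Affymetrix control probe sets were left out, leaving 57258, the 25th percentile of all signals (2.1) was added, log2 was taken, and the 28461 probe sets whose mean over the 12 arrays exceeded 9.4, the median of all signals pooled, were tested. A group mean per variety and treatment and an effect of the experiment were fitted to all 12 arrays with limma 3.58.1 in R 4.3.3 (lmFit, contrasts.fit, eBayes; 6 residual and 2.85 prior degrees of freedom), with Benjamini-Hochberg adjustment within each of 6 contrasts. The fit was tested on simulated data first. The experiment is a block because the 4 conditions of a replicate were harvested together and the replicates were independent experiments. The deviations of arrays of 1 experiment from their group means correlated with a median r of 0.131 (18 pairs, 11 above 0.1), against -0.0359 between arrays of different experiments (36 pairs, 7 above 0.1).

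Genes were named through the platform annotation and RefSeq symbols: 22436 probe sets have 1 gene and 95 several, and only the first kind was used, with the probe set of highest mean signal per gene. Of the members, 11 have several probe sets and 6 stand on a probe set marked as able to match more than 1 transcript. Members called in any contrast were named, and of each further list up to 3 genes of smallest adjusted p. The members and lists were chosen with earlier results of these data known. Alternatives covered the pseudocount, the filter, the scaling, the block, limma's trend and robust options, the second probe set of a gene and leaving out arrays. No sequence was used here.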

Additional observations from a re-analysis of the deposited data

How the results depend on the processing

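Precision was limited by 3 arrays per group, and array signals give no read depth. Refits covered 45 calls, those of members in every comparison and those of named genes of the further lists for arsenate in each variety. Under 25 other settings none of these turned its direction. The 2 called in every setting that gave them a value were DMC1 and MSH5 in Azucena, both of the DNA repair list. Every call of a member was lost in at least 1 setting. Of 1069 refitted values, 749 stayed past the adjusted threshold and 320 did not. The numbers of members called were 6 for arsenate in Azucena, 4 for arsenate in Bala, 11 for the average over varieties, 0 for the difference between varieties, 2 for Bala against Azucena without arsenate and 1 for Bala against Azucena under arsenate.

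Without the filter on low values, 1 member was called in Azucena, 1 in Bala, 6 for the average, 0 for the varieties without arsenate and 0 for the varieties under arsenate. Centring each array on its median gave 7 for the average and 1 for the varieties without arsenate. The pseudocount at the 5th percentile also gave 1 for the varieties without arsenate. Quantile scaling gave 1 for the varieties without arsenate and 2 under arsenate. With limma's trend and robust options 4 members were called for the varieties without arsenate and 2 under arsenate. The second probe set of a gene gave 3 without arsenate and 1 under arsenate. Some settings raised the arsenate counts, with 9 calls in Azucena, 5 in Bala and 12 for the average under limma's trend and robust options, 8, 6 and 12 with the filter at the 70th percentile, 7, 5 and 12 with the pseudocount at the 50th percentile, and 7, 6 and 13 with the second probe set of a gene. Leaving out the control array of Azucena and the arsenate array of Bala of the third experiment, an alternative added after seeing the data, gave 1 in Bala, 7 for the average, 1 for the varieties without arsenate and 2 under arsenate. Leaving out 1 array or 1 experiment at a time gave 0 to 9 calls in Azucena, 0 to 4 in Bala, 0 to 13 for the average, 0 to 3 for the varieties without arsenate and 0 to 4 under arsenate. The difference between varieties gave 0 calls in every setting (limma, with 4 members at an unadjusted p under 0.05).

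Without the replicate block for the experiment, 5 members were called in Azucena, 4 in Bala, 10 for the average, 0 for the difference, 2 for the varieties without arsenate and 1 under arsenate. Of these, 4 in Azucena, 3 in Bala and 10 for the average were shared with the calls of the paired fit.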

Other observations

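Levels of some genes of histones, DNA repair, kinesins and CDK inhibitors differed between the varieties. The genes named here were chosen after their values were seen, and whether the target sequence of a probe set differs between the varieties was not tested. H2B.10, a histone H2B gene, had signals of 0.4 to 2.0 on the 6 Bala arrays, against 37.3 to 62.3 on the 6 Azucena arrays. Every Bala array lay below the limit for testing of 9.4 and below the pseudocount of 2.1, so that the gene was tested through Azucena alone and the size of the difference is set by the pseudocount (log2 differences of -4.93 to -2.48 without arsenate and -5.36 to -2.49 under arsenate over the other settings). KIN14R, a kinesin, was lower in Bala by a log2 difference of -2.59 ± 0.31 without arsenate (limma, adjusted p = 0.00054) and of -1.95 ± 0.31 under arsenate (adjusted p = 0.00285). PARP1, a poly(ADP-ribose) polymerase of DNA repair, was lower in Bala by -1.27 ± 0.21 without arsenate (limma, adjusted p = 0.00385) and by -1.87 ± 0.21 under arsenate (adjusted p = 0.000389). KIN14R read 12.1 to 17.9 in Bala with arsenate and 5.6 to 17.9 in Bala controls, against 57.4 to 81.5 on the 6 Azucena arrays, and was called in all 23 other settings tested for it. PARP1 lost its call without arsenate in 1 of 24, when the first experiment was left out (highest adjusted p = 0.0824).

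The opposite direction was seen for SPO11-3, a homologue of the topoisomerase-like SPO11 proteins, which was higher in Bala by a log2 difference of 1.35 ± 0.19 without arsenate (limma, adjusted p = 0.0015) and of 1.08 ± 0.19 under arsenate (adjusted p = 0.00551). Its calls were lost in 1 of 24 settings, without the second experiment (adjusted p = 0.0709 and 0.13). EL2, a CDK inhibitor gene of the SIAMESE-related kind, was higher in Bala by 1.13 ± 0.20 without arsenate (limma, adjusted p = 0.00529). Under arsenate the difference between varieties was 0.08 ± 0.20 (limma, adjusted p = 0.859), and the test of whether the varieties differed in their arsenate change of EL2 gave -1.05 ± 0.28 (limma, adjusted p = 0.219). EL2 lost its call without arsenate in 2 of 24 settings, without the second or without the third experiment (highest adjusted p = 0.149).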
